A study of Mus musculus with 30 samples.

Results

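The 39 genes described here code for the sensors, chaperones, enzymes and channels with which the endoplasmic reticulum (ER) takes in, folds, checks and disposes of secreted and membrane proteins. They were chosen by name as genes of the ER stress response and of secretory folding, by a rule that uses no measured value. Earlier results of these data were known when they were chosen. All 39 were found among the 23420 genes of the deposited tables, and all 39 were among the 12611 genes with enough reads to be tested. Proteins bound for secretion enter the ER through the Sec61 channel, lose their signal peptide, and are folded with the help of chaperones such as BiP and of enzymes that form disulfide bonds. When unfolded protein accumulates, the sensors IRE1, ATF6 and PERK start the unfolded protein response: IRE1 splices the mRNA of the factor XBP1, ATF6 is cut to release a transcription factor, and PERK slows translation. Cells that secrete much protein enlarge this machinery, and plasma cells, which secrete antibody, are the textbook case in which XBP1 is needed.

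Gene expression had been measured by RNA-seq of mouse CD4 T cells in 30 libraries, which form 10 groups of 3. All cells came from C57BL/6 mice that carry both a Foxp3-GFP reporter and an IL-10-Thy1.1 reporter, in which Thy1.1 on the cell surface marks expression of interleukin 10 (IL-10), a cytokine that restrains immune responses. Naive cells (CD4+ CD44- CD62L+ GFP-) were activated with anti-CD3 (2.5 ug/ml) and with splenocytes, 6 per T cell, that had been irradiated and freed of CD4 cells. The cytokines added set the 5 cultures apart: IL-12 (20 ng/ml) for Th1, IL-4 (20 ng/ml) for Th2 and IL-27 (25 ng/ml) for Tr1. Non-pathogenic Th17 cultures, written Th17, received TGFb1 (2 ng/ml) and IL-6 (25 ng/ml). Pathogenic Th17 cultures, written pTh17, received IL-6 (25 ng/ml) with IL-1b and IL-23 (each 20 ng/ml). After 72 h, cells of each culture that were 7-AAD-, TCRb+, CD4+ and GFP- were sorted by Thy1.1 into an IL-10 positive and an IL-10 negative group, and 2000 cells were used per library. The labels give no ages and do not say whether the 3 libraries of a group came from separate mice or cultures, so p-values speak only of the spread among libraries, which may be technical.

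The total of a library lay between 4394704 and 11850597 expected counts, the reads that RSEM assigned to genes. Levels are given as deposited TPM (transcript abundance scaled for gene length and depth), as the mean ± SD of 3 libraries unless single libraries are listed. Differences are log2 fold changes ± standard error from edgeR's quasi-likelihood test on rounded counts, and a gene is said to have risen or fallen where the p adjusted by Benjamini-Hochberg over all 12611 genes was below 0.05. Il10 itself rose from the negative to the positive libraries of each culture, from 3.62 (Th2) to 6.47 (Tr1) on the log2 scale, which checks the labels of the sort. In negative Th2 libraries it was still at 93.0 ± 7.56 TPM, against 0.733 to 7.83 TPM in the other negative groups. That was above the positive libraries of Th17 (39.4 ± 3.97), pTh17 (76.8 ± 1.22) and Tr1 (70.25 ± 8.96). IL-10 negative thus names the sort gate and not the absence of Il10 RNA. The 5 CD4 T cell markers summed to between 2833 and 4271 TPM in the 10 groups. Each library is a bulk of cells, so fewer cells expressing a gene and less RNA per cell cannot be told apart. Counts per gene do not show the splicing of Xbp1 or the cutting of ATF6.

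The promoters of several of these genes carry a known sequence element, the ER stress element (ERSE, the letters CCAAT and CCACG set 9 bases apart), to which NF-Y and the cut form of ATF6 or spliced XBP1 are known to bind. RefSeq promoter sequences (GRCm38.p6, the assembly that mm10 names) of 250 bases before to 50 after each start were searched on both strands, and 32 of the 39 genes had an entry. An ERSE was present in 9 of those 32 genes (28.1%), against 37 of all 27025 genes with an entry (0.137%). The matches are shown because they are what part of the list shares in sequence, with the fixed letters of the element in capitals, 12 bases on each side, read in the direction of the element and named by gene.
Hspa5 (chr2:34772013-34772055, plus strand, element 65 to 47 bases before the start): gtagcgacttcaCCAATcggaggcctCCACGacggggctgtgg
Hsp90b1, far copy (chr10:86705626-86705668, minus strand, element 212 to 194 bases before the start): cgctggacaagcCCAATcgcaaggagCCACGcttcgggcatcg
Hsp90b1, near copy (chr10:86705521-86705563, plus strand, element 107 to 89 bases before the start): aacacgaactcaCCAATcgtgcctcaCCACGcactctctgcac
Pdia6 (chr12:17266479-17266521, plus strand, element 98 to 80 bases before the start): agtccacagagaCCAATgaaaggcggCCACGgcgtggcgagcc
Calr (chr8:84847063-84847105, plus strand, element 162 to 144 bases before the start): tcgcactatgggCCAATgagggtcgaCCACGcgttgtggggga
Canx (chr11:50325788-50325830, minus strand, element 145 to 127 bases before the start): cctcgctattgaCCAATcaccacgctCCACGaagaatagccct
Creld2 (chr15:88819508-88819550, minus strand, element 126 to 108 bases before the start): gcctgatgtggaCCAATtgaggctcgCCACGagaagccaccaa
Dnajc3 (chr14:118937815-118937857, plus strand, element 105 to 87 bases before the start): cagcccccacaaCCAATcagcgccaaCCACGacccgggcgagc
Syvn1 (chr19:6046520-6046562, plus strand, element 44 to 26 bases before the start): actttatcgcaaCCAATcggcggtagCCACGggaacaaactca
Derl3 (chr10:75893230-75893272, minus strand, element 156 to 138 bases before the start): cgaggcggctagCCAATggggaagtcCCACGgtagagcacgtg
The second form, ERSE-II (ATTGG, any base and CCACG), was found in Herpud1 and Dnajb11, or 2 of 32 genes (6.25%), against 12 of 27025 (0.0444%). It is shown for Herpud1, where it lies before the start, with its 11 letters in capitals.
Herpud1 (chr8:94386365-94386399, plus strand, element 52 to 42 bases before the start): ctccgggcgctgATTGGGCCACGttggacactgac
The shorter core of the unfolded protein response element (TGACGTG) was present in Hspa5 and Txndc5, 2 of 32 (6.25%), against 601 of 27025 genes (2.22%). None of these 3 motifs overlaps another in the genes named. A match is a description of letters and not evidence of binding in these cells.

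**Figure D1:**
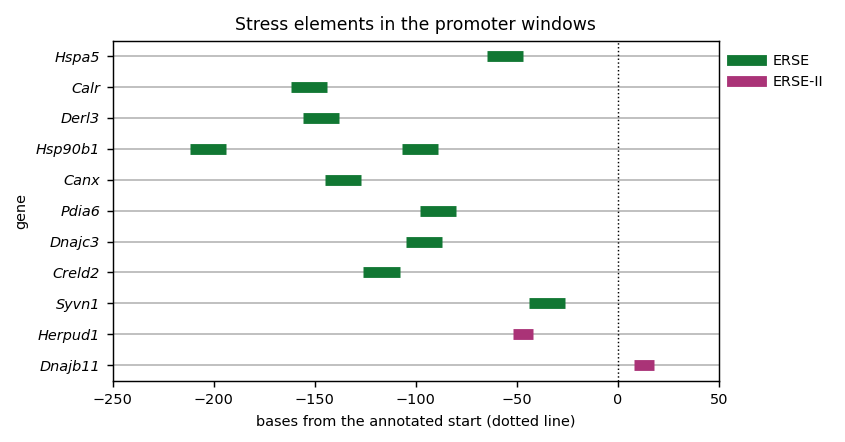
Place of each ERSE (green) and ERSE-II (purple) in the promoter windows of the 11 genes that hold one; the horizontal axis gives bases from the annotated start and each grey line is the 300-base window. Hsp90b1 holds 2 copies, and only the ERSE-II of Dnajb11 lies after the start.

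Together the 39 genes made up a small and culture-dependent share of the transcripts, and in every culture their sum was higher in the positive than in the negative libraries. In IL-10 negative cells the summed level was 3641 ± 114 TPM in Tr1, 4159 ± 46.99 in Th1, 4928 ± 108 in pTh17, 5485 ± 68.6 in Th17 and 8788 ± 121 in Th2. In IL-10 positive cells it was 3888 ± 105 TPM in Tr1, 5666 ± 104 in pTh17, 6603 ± 87.7 in Th1, 7033 ± 131 in Th17 and 11349 ± 142 in Th2. Within each compartment the libraries of neighbouring cultures in this order did not overlap, and the order differed between the compartments only in the places of Th1 and pTh17. The ratio of positive to negative sums was 1.59 in Th1, 1.29 in Th2, 1.28 in Th17, 1.15 in pTh17 and 1.07 in Tr1. The 3 positive libraries lay above the 3 negative ones in each culture, with the narrowest gap in Tr1, 3711 against 3771 TPM.

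**Figure D2:**
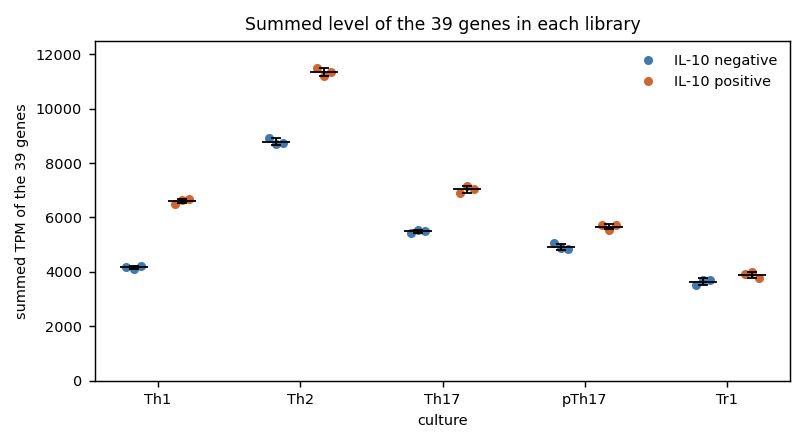
Summed TPM of the 39 genes (vertical axis) in each of 30 libraries, by culture and IL-10 compartment; points are libraries, black bars the mean and SD of 3. The Th2 libraries stand highest and the Tr1 libraries lowest in both compartments, and positive libraries lie above negative ones in all 5 cultures.

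Gene by gene, most of the list was called higher in IL-10 positive cells of Th1, Th2 and Th17, most widely in Th1. Fewer calls were made in pTh17 and Tr1. This order is that of the calls, which rest on TMM-scaled counts and not on TPM. Hspa5, for example, rose 1.18-fold in Th17 and in pTh17 by the fit, against TPM ratios of 1.063 and 1.244. In Th1, 34 of the 39 rose and 1 fell, where 23.5% of all genes tested rose and 20.4% fell. The Th2 counts were 31 and 0 (all genes 12.3% and 9.49%) and the Th17 counts 27 and 3 (all genes 29.2% and 28.9%). In pTh17, 14 rose and 0 fell (all genes 10.1% and 8.33%), and in Tr1, 19 rose and 1 fell (all genes 20.5% and 14.2%). Leaving out the pTh17 IL-10 negative library numbered 14 in the titles brought the pTh17 count to 9. The Tr1 count that fell was 5 with plain library totals or with no filter on low counts and 2 with the replicate number as a block or with the 6 Tr1 libraries alone. It was 4 without the negative Tr1 library 16, 3 without the positive library 18, and 2 without the negative library 17 or the positive libraries 16 or 17. The Th1 count that fell was 2 without the negative Th1 library 5.

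The median log2 difference of the list was 0.72 in Th1, 0.50 in Th17, 0.36 in Th2, 0.18 in pTh17 and 0.18 in Tr1. Over all genes tested the median lay between -0.042 (Th17) and 0.046 (Tr1). On the mean of the 5 differences, each culture weighted equally, 35 of the 39 rose and 1, Dnajb9, fell (all genes 29.6% and 28.2%). The count that fell was 2 without the negative Th1 library 5, the negative Th2 library 9 or the positive Th17 library 11. The 5 comparisons use different libraries, so the calls can be counted across them. 27 of the 39 (69.2%) rose in at least 3 cultures and fell in none, against 12.4% of all genes tested. 7 of the 39 (17.9%) rose in all 5 cultures, against 1.78% of all genes: Atf6, Hsp90b1, Sdf2l1, Creld2, Canx, Pdia6 and Ssr1. Edem1 was the 1 gene of the list (2.56%; 13.5% of all genes) that rose in some cultures and fell in another, and Srp54a was called in none.

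**Figure D3:**
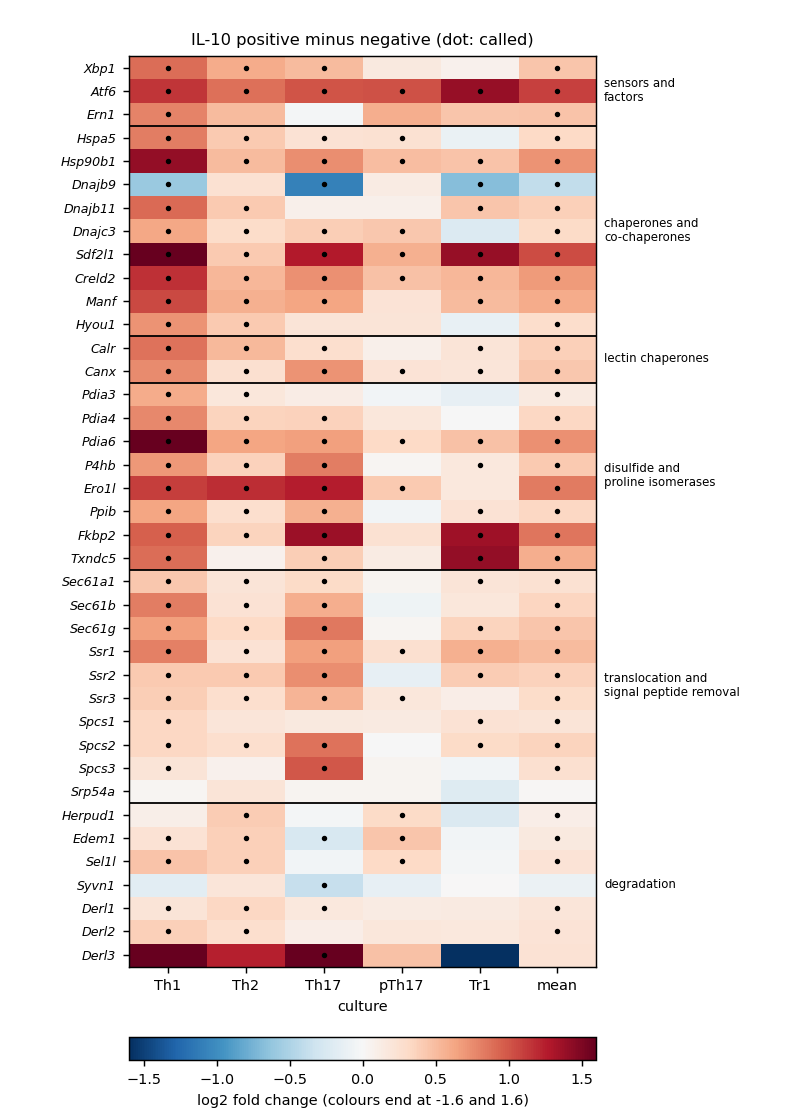
Log2 fold change, IL-10 positive minus negative, for the 39 genes (rows, grouped by role) in each culture and on the mean of the 5 (columns); red is higher in positive cells, blue lower, and a dot marks an adjusted p below 0.05. Th1 holds the most red and dotted cells (34 genes), Dnajb9 is blue and dotted in 3 cultures, and Derl3 rests on few reads.

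The sizes of the differences depended on the culture for most of the list. The test of equality of the 5 differences was called for 34 of the 39 genes, where it was called for 60.7% of all genes tested. The 6 smallest p-values among the 39 belonged to Hsp90b1 (adjusted p = 1.04e-12), Spcs3 (1.31e-11), Hspa5 (2.28e-11), P4hb (3.23e-11), Pdia6 (4.63e-11) and Ero1l (9.91e-11). Ern1, Derl1, Derl2, Spcs1 and Srp54a were not called by this test, with adjusted p from 0.31 to 0.601, which does not show that their differences were alike.

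Among the sensors and factors, Atf6 was higher in IL-10 positive cells of all 5 cultures, while Xbp1 was higher in 3 cultures and Ern1 in 1. Atf6 (chr1:170704457-170868585 on GRCm38) codes for the sensor that is cut in the Golgi. Its level in Th1 was 8.25, 8.93 and 9.93 TPM in the negative and 19.8, 19.3 and 19.9 TPM in the positive libraries, a difference of 1.14 ± 0.10 (adjusted p = 2.7e-12). In Tr1, where its level was lowest, it was 5.800, 5.18 and 5.33 against 14.9, 12.8 and 13.3 TPM, a difference of 1.40 ± 0.12 (adjusted p = 1.84e-12). The 3 positive libraries lay above the 3 negative ones in both cultures, and the positive Tr1 libraries still stood below the positive Th1 libraries. In Th2, Atf6 was 8.78, 8.58 and 10.7 against 18.4, 16.3 and 17.4 TPM (0.88 ± 0.093 on the log2 scale). In Th17 it was 12.5, 14.2 and 13.2 against 25.3, 23.97 and 23.2 TPM (1.01 ± 0.097), and in pTh17 12.96, 11.7 and 14.3 against 27.6, 26.02 and 29.8 TPM (1.02 ± 0.093). The groups did not overlap in any of the 5 cultures, and Atf6 had the largest mean difference of the 39 genes, 1.09 ± 0.045 (adjusted p = 1.82e-22). Its 5 differences spanned 0.88 to 1.40, and the test of equality was called with an adjusted p of 0.0378 (the smallest among the 39 being 1.04e-12).

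Xbp1 (chr11:5520641-5525993) codes for the factor whose mRNA IRE1 splices. Its level in Th1 was 98.7, 97.98 and 88.5 TPM in the negative and 149, 188 and 183 TPM in the positive libraries, a rise of 0.90 ± 0.078 (adjusted p = 2.65e-12). In Th2 it was 319, 318 and 295 against 446, 470.0 and 494 TPM (0.59 ± 0.072 (adjusted p = 3.1e-08)), and in Th17 192, 204 and 189 against 232, 272 and 244 TPM (0.50 ± 0.075 (adjusted p = 3.6e-07)). Positive libraries were the higher ones in these 3 cultures without overlap. The pTh17 values were 334, 353 and 329.5 against 375, 387 and 426 TPM, also without overlap, but the difference of 0.15 ± 0.072 missed the threshold (adjusted p = 0.159). In Tr1 the groups overlapped at 56.5, 51.4 and 56.8 and 49.9, 54.4 and 59.4 TPM, with a difference of 0.066 ± 0.092 (adjusted p = 0.619). Ern1, the gene of IRE1, was at 0.6500 to 4.47 TPM over the 30 libraries. It rose in Th1 (0.80 ± 0.27 (adjusted p = 0.0161)), a call that was lost without the Th1 negative library 6 (adjusted p = 0.0585) or without the positive library 4 (0.145). Its differences elsewhere were 0.51 ± 0.26 in Th2, -0.025 ± 0.30 in Th17, 0.58 ± 0.26 in pTh17 and 0.44 ± 0.38 in Tr1, none of them past the threshold.

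The chaperones and co-chaperones of the ER lumen rose together in Th1 and Th2, with 1 gene, Dnajb9, moving the other way in Th1. Of these 9 genes, 8 rose and 1 fell in Th1, 8 rose and 0 fell in Th2, 6 rose and 1 fell in Th17, 5 rose and 0 fell in pTh17 and 5 rose and 1 fell in Tr1. Of all genes tested, 23.5% rose in Th1, 12.3% in Th2, 29.2% in Th17, 10.1% in pTh17 and 20.5% in Tr1. The shares that fell were 20.4%, 9.49%, 28.9%, 8.33% and 14.2% in the same order. Hspa5 (chr2:34772090-34776529) codes for BiP, the Hsp70 chaperone of the ER that holds the stress sensors inactive. Its level in Th1 was 254, 260.1 and 266 TPM in the negative and 430.5, 453 and 464 TPM in the positive libraries (0.81 ± 0.054 (adjusted p = 1.53e-15)). In Th2 it was 746, 712 and 709.9 against 1008, 947 and 961 TPM (0.42 ± 0.052 (adjusted p = 4.95e-08)), and in pTh17 339, 336 and 335 against 424, 420.1 and 413 TPM (0.24 ± 0.053). These groups did not overlap, whereas in Th17 the lowest positive library lay within the negative range, at 397, 431 and 428 against 421, 464 and 451 TPM (0.24 ± 0.053 (adjusted p = 0.00026)). Tr1 went the other way in level, with 221, 267 and 241 TPM in the negative and 217, 217 and 210.3 TPM in the positive libraries. That difference of -0.11 ± 0.056 was not called (adjusted p = 0.136), though it was called lower with library totals left unscaled, with no filter on low counts, and without the Tr1 negative library 16 (adjusted p = 0.0257, 0.0178 and 0.0179).

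Hsp90b1 (chr10:86690841-86705444) codes for GRP94, the Hsp90 chaperone of the ER, and rose in all 5 cultures. In Th1 its level was 173, 157 and 182 TPM in the negative and 432, 455 and 439.8 TPM in the positive libraries (1.40 ± 0.058 (adjusted p = 1.12e-21)). In Tr1 it was 146, 147 and 149 against 193, 196 and 187 TPM (0.46 ± 0.060 (adjusted p = 7.77e-08)). Unlike Hspa5, it was thus higher in every positive Tr1 library than in every negative one. The differences in Th2, Th17 and pTh17 were 0.51 ± 0.056, 0.74 ± 0.057 and 0.49 ± 0.057, and the mean was 0.72 ± 0.026 (adjusted p = 2.13e-24).

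Sdf2l1 (chr16:17130138-17132383), a partner of the co-chaperone ERdj3, had a wider relative range of levels than any other gene of the list, leaving aside Derl3, which was at 0 in 1 group: 24.3-fold between group means. It was at 16.98, 11.7 and 7.82 TPM in the negative and 24.8, 29.99 and 31.8 TPM in the positive Tr1 libraries (1.39 ± 0.20 (adjusted p = 6.62e-07)). In Th1 it was 28.9, 34.4 and 26.8 against 81.4, 90.4 and 92.7 TPM (1.59 ± 0.13 (adjusted p = 8.3e-13)), and in Th17 66.98, 72.1 and 52.3 against 126, 159.5 and 130.1 TPM (1.27 ± 0.12 (adjusted p = 1.01e-11)). In these 3 cultures the fitted difference was above 1, and the groups did not overlap. The Th2 and pTh17 differences were 0.42 ± 0.099 and 0.56 ± 0.12. Creld2 and Manf, secreted proteins that ER stress induces, rose by 1.17 ± 0.11 and 1.06 ± 0.086 in Th1. Hyou1, which recharges BiP with ATP, rose in Th1 and Th2 and was at 7.21 to 39.4 TPM in the positive groups. Dnajb11, the gene of ERdj3, rose in Th1, Th2 and Tr1, and Dnajc3, a co-chaperone known to restrain PERK, rose in every culture but Tr1.

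Dnajb9 (chr12:44205897-44210068), the gene of the co-chaperone ERdj4, which is known to hold IRE1 inactive and to be induced by XBP1, moved against the rest of the list. Its level in Th17 was 66.4, 71.1 and 79.1 TPM in the negative and 32.5, 29.2 and 30.5 TPM in the positive libraries, a difference of -1.08 ± 0.11 (adjusted p = 2.63e-11) on the log2 scale. In Tr1 it was 78.98, 72.99 and 77.2 against 51.6, 45.2 and 38.96 TPM (-0.69 ± 0.11 (adjusted p = 3.15e-06)), and in Th1 33.00, 44.4 and 38.8 against 26.2, 25.3 and 23.7 TPM (-0.60 ± 0.11 (adjusted p = 2.86e-05)). All positive libraries lay below all negative ones in these 3 cultures. In Th2 and pTh17 its level was near that of the lowest libraries elsewhere, at 19.3, 16.8 and 17.5 against 21.2, 19.6 and 22.8 TPM and 19.2, 19.4 and 16.4 against 23.4, 21.9 and 17.6 TPM. The differences there were 0.24 ± 0.11 (adjusted p = 0.126) and 0.13 ± 0.12 (adjusted p = 0.532), and the mean of the 5 was -0.40 ± 0.050 (adjusted p = 9.81e-09). The equality of its 5 differences was rejected with an adjusted p of 3.1e-09.

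**Figure D4:**
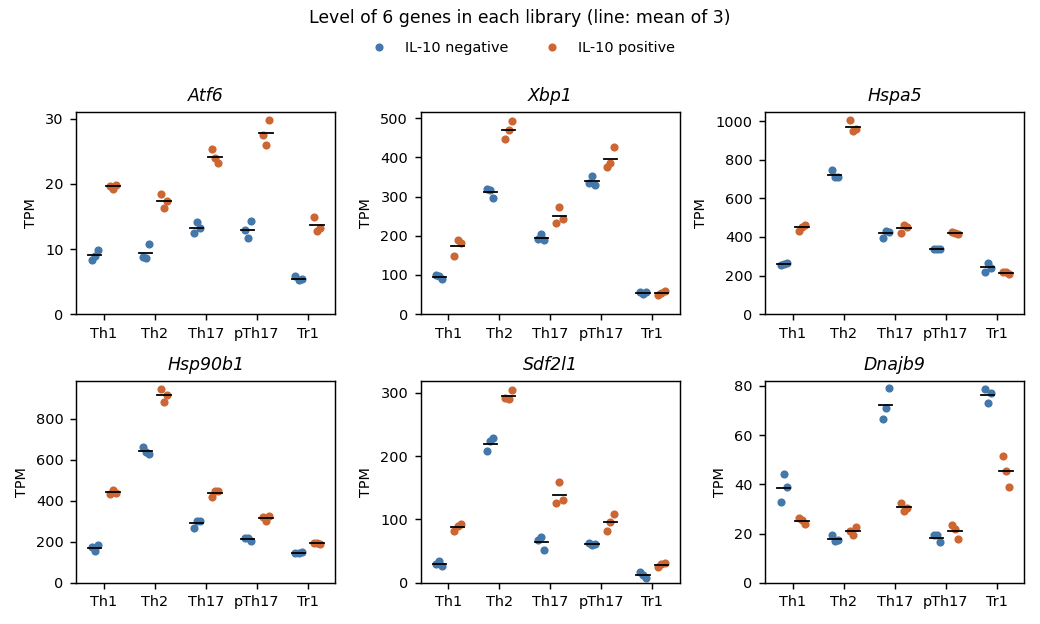
TPM (vertical axes, each from 0) of 6 genes in each of 30 libraries, by culture and IL-10 compartment; points are libraries and lines the mean of 3. Atf6 is higher in positive cells of every culture, Xbp1 and Hspa5 do not rise in Tr1, and Dnajb9 is lower in positive cells of Th1, Th17 and Tr1.

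Of the lectin chaperones, which hold newly made glycoproteins by their sugars, Canx rose in all 5 cultures and Calr in all but pTh17. Calr was at 163 ± 17.4 TPM in negative and 292 ± 4.097 TPM in positive Th1 cells, a difference of 0.87 ± 0.070. Canx was at 113 ± 6.04 and 187 ± 1.795 TPM there, a difference of 0.75 ± 0.060. In Tr1 both rises were small, 0.20 ± 0.074 for Calr and 0.20 ± 0.062 for Canx, and the TPM of positive and negative libraries overlapped.

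The enzymes that form and shuffle disulfide bonds or turn proline bonds rose in Th1 without exception, and the order of their differences varied with the culture. Of these 8 genes, 8 rose in Th1, 7 in Th2, 7 in Th17, 5 in Tr1 and 2 in pTh17, and none fell. The shares of all genes tested that rose were 23.5%, 12.3%, 29.2%, 20.5% and 10.1% in the same order. The pTh17 count is too small to be read against that share. Pdia6, a protein disulfide isomerase, was at 61.3, 50.6 and 55.9 TPM in negative and 161, 161 and 170.5 TPM in positive Th1 libraries (1.59 ± 0.084 (adjusted p = 1.46e-18)). Its differences in the other cultures ran from 0.32 ± 0.078 in pTh17 to 0.66 ± 0.078 in Th17. P4hb, the archetypal protein disulfide isomerase, rose by 0.81 ± 0.055 in Th17 and by 0.70 ± 0.056 in Th1, and its pTh17 difference was 0.029 ± 0.054 (adjusted p = 0.79).

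Ero1l, the oxidase that reoxidises protein disulfide isomerase, rose by more than 1 on the log2 scale in Th1, Th2 and Th17, and had its highest level in pTh17. It was at 45.7, 45.8 and 44.4 TPM in negative and 105, 97.3 and 107 TPM in positive Th2 libraries (1.19 ± 0.074 (adjusted p = 9.28e-16)). In Th17 it was 23.2, 27.3 and 23.3 against 52.4, 56.1 and 49.8 TPM (1.25 ± 0.084 (adjusted p = 7.09e-16)), and in Th1 the difference was 1.11 ± 0.081. In pTh17 its level was 136, 121 and 113 against 189, 162 and 169.6 TPM (0.42 ± 0.072 (adjusted p = 2.35e-05)). The Tr1 libraries overlapped at 15.8, 17.1 and 15.9 and 17.9, 15.7 and 18.3 TPM (0.16 ± 0.10, adjusted p = 0.219).

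Txndc5 and Fkbp2 were among the few genes of the list with a large difference in Tr1. Txndc5, a protein disulfide isomerase known from plasma cells, was at 20.9, 22.9 and 18.8 TPM in negative and 51.03, 55.6 and 49.4 TPM in positive Tr1 libraries (1.41 ± 0.13 (adjusted p = 4.1e-11)). In Th2 the groups overlapped at 51.4, 55.04 and 37.9 and 43.2, 55.1 and 52.2 TPM (0.067 ± 0.11), and the equality of its 5 differences was rejected (adjusted p = 6.01e-08). Fkbp2, a proline isomerase of the ER, rose by 1.37 ± 0.15 in Th17 and 1.36 ± 0.24 in Tr1, against 0.35 ± 0.11 in Th2. In Tr1 its libraries were at 13.3, 10.9 and 13.3 and 34.5, 34.3 and 25.3 TPM, so this large relative rise took place at a low level. Of the other members, Pdia3 (ERp57, the partner of calreticulin) rose in Th1 and Th2, Pdia4 in Th1, Th2 and Th17, and Ppib (cyclophilin B) in all but pTh17. Ppib and Pdia3 had the highest mean levels of the 39 genes, 505 and 492 TPM over the 30 libraries.

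Most genes of protein entry into the ER rose in Th1, Th2 and Th17. Of 10 genes, 9 rose in Th1, 8 in Th17, 7 in Th2, 6 in Tr1 and 2 in pTh17, and none fell. The shares of all genes tested that rose were 23.5%, 29.2%, 12.3%, 20.5% and 10.1% in the same order. The pTh17 count is too small to be read against that share. The median difference of the 10 genes was highest in Th17 (0.62), against 0.41 in Th1 and 0.22 in Tr1. Sec61a1, the pore of the channel, rose by 0.43 ± 0.057 in Th1, and its small partners Sec61b and Sec61g by 0.82 ± 0.078 and 0.66 ± 0.080. Of the TRAP complex beside the channel, Ssr1 rose in all 5 cultures, from 0.23 ± 0.068 in Th2 to 0.80 ± 0.069 in Th1. Ssr2 rose in all but pTh17 and Ssr3 in all but Tr1.

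Spcs3, a subunit of the signal peptidase, differed chiefly in Th17. In Th17 it was at 116, 122 and 111 TPM in negative and 205, 217 and 207 TPM in positive libraries (1.00 ± 0.067 (adjusted p = 9.68e-16)). In Th1 the rise was 0.21 ± 0.067 (adjusted p = 0.00945), and the other 3 differences, 0.071 ± 0.064 in Th2, 0.049 ± 0.066 in pTh17 and -0.038 ± 0.070 in Tr1, were not called. The equality of the 5 differences was rejected with an adjusted p of 1.31e-11. Spcs2 also rose most in Th17 (0.87 ± 0.067), while the third subunit, Spcs1, was not called there (0.16 ± 0.085). Srp54a, a subunit of the signal recognition particle, was at 5.500 to 11.5 TPM, and its near-identical copies Srp54b and Srp54c at 49.3 and 102 TPM on average, so how reads were divided among the 3 makes its values uncertain.

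The genes of ER-associated degradation, which send misfolded proteins back to the cytosol, rose in part in Th1 and Th2. Of 7 genes, 5 rose and 0 fell in Th2, 4 rose and 0 fell in Th1, 3 rose and 0 fell in pTh17, 2 rose and 2 fell in Th17 and 0 rose and 0 fell in Tr1. The Th17 counts are near the shares over all genes tested there, 29.2% and 28.9%. Of all genes tested, 12.3% rose in Th2, 23.5% in Th1, 10.1% in pTh17 and 20.5% in Tr1. The pTh17 and Tr1 counts are too small to be read against those shares. Herpud1, a stress-induced protein that gathers the degradation complex, rose in Th2 (0.41 ± 0.087 (adjusted p = 0.000452)) and pTh17 (0.30 ± 0.089 (adjusted p = 0.0131)). The pTh17 call was lost without the negative library 14 (adjusted p = 0.105) or the positive library 15 (0.0589). In Tr1 Herpud1 was at 75.2, 72.05 and 75.3 TPM in the negative and 58.9, 68.3 and 52.1 TPM in the positive libraries, a difference of -0.24 ± 0.098 (adjusted p = 0.0565). All 3 positive libraries lay below the negative ones, and the difference was called lower without the negative library 17 (adjusted p = 0.0323) or the positive library 17 (0.0116). In Th1 and Th17 Herpud1 differed by 0.090 ± 0.087 and -0.028 ± 0.091, neither of them called. In TPM, all positive Th17 libraries lay below the negative ones, at 65.9 to 68.7 against 74.3 to 78.4.

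Edem1, a mannosidase-like protein that picks out misfolded glycoproteins, rose in Th1, Th2 and pTh17 and fell in Th17. Its level in Th17 was 22.3, 23.1 and 24.6 TPM in the negative and 17.6, 17.4 and 17.9 TPM in the positive libraries (-0.26 ± 0.087 (adjusted p = 0.0115)). In pTh17 it was 16.4, 16.6 and 13.3 against 22.1, 22.3 and 21.8 TPM (0.45 ± 0.086 (adjusted p = 0.00016)). The groups did not overlap in either culture, and the equality of the 5 differences was rejected (adjusted p = 1.07e-05). Syvn1, the ubiquitin ligase Hrd1, fell in Th17 (-0.37 ± 0.10) and was called in no other culture, while its partner Sel1l rose in Th1, Th2 and pTh17. Of the derlins, which form part of the exit channel, Derl1 rose in Th1, Th2 and Th17 and Derl2 in Th1 and Th2. Derl3 was nearly absent, with 201 reads over all 30 libraries. It rose in Th17 (2.52 ± 0.73 (adjusted p = 0.00333)) on 5 reads in the 3 negative and 50 in the 3 positive libraries. Its count was 0 in the 3 positive Tr1 libraries and 7 in the 3 negative ones, a difference that was not called (adjusted p = 0.0572). With 3 counts put in for the positive group, the level was 1.93-fold lower, which so few reads do not make a bound.

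Between cultures, the largest contrast was Th2 against Tr1. The negative Th2 libraries were not free of Il10 RNA, as given above. For 27 of the 39 genes the positive Th2 group had the highest mean TPM of the 10 groups, and for 26 the lowest mean was in a Tr1 group. The share of all genes with these extremes was not counted, so neither count is read against a background. Among negative libraries, Th2 cells had 31 genes above the mean of the other 4 cultures and 3 below (all genes tested 36% and 34.8%), with a list median of 0.93 against -0.053 for all genes. Tr1 cells had 2 above and 29 below (all genes 27.4% and 30.2%), with a median of -0.57 against -0.012. Among positive libraries the counts were 34 above and 3 below in Th2 (all genes 36.3% and 32.4%) and 3 above and 35 below in Tr1 (all genes 33.3% and 32.3%). These contrasts share libraries, so a gene high in Th2 is pushed below the mean in the other cultures. The test of equal levels over the 5 cultures was called for 37 of the 39 genes in negative and 39 in positive libraries, where 88.2% and 92.2% of all genes tested were called.

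The remaining cultures lay between these. Th1 cells had 6 genes above and 17 below the others among negative libraries (all genes 26% and 17.5%), and 19 above and 5 below among positive ones (29.3% and 27.3%). The last count was 9 with plain library totals and 3 without the positive Th1 library 4. The pTh17 counts were 12 above and 16 below among negative libraries (30.9% and 27.6%) and 8 above and 25 below among positive ones (29.3% and 27.5%). The Th17 counts were 8 above and 15 below among negative libraries (25.6% and 26.2%) and 8 above and 10 below among positive ones (29.7% and 27.5%). With library totals left unscaled the Th17 counts above were 16 and 19, and the list medians turned from -0.10 and -0.028 to 0.070 and 0.15, while the median of all genes moved to 0.19 and 0.17, so no direction is read for Th17. Leaving out the Th17 negative library 10 brought its negative count above to 3.

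**Figure D5:**
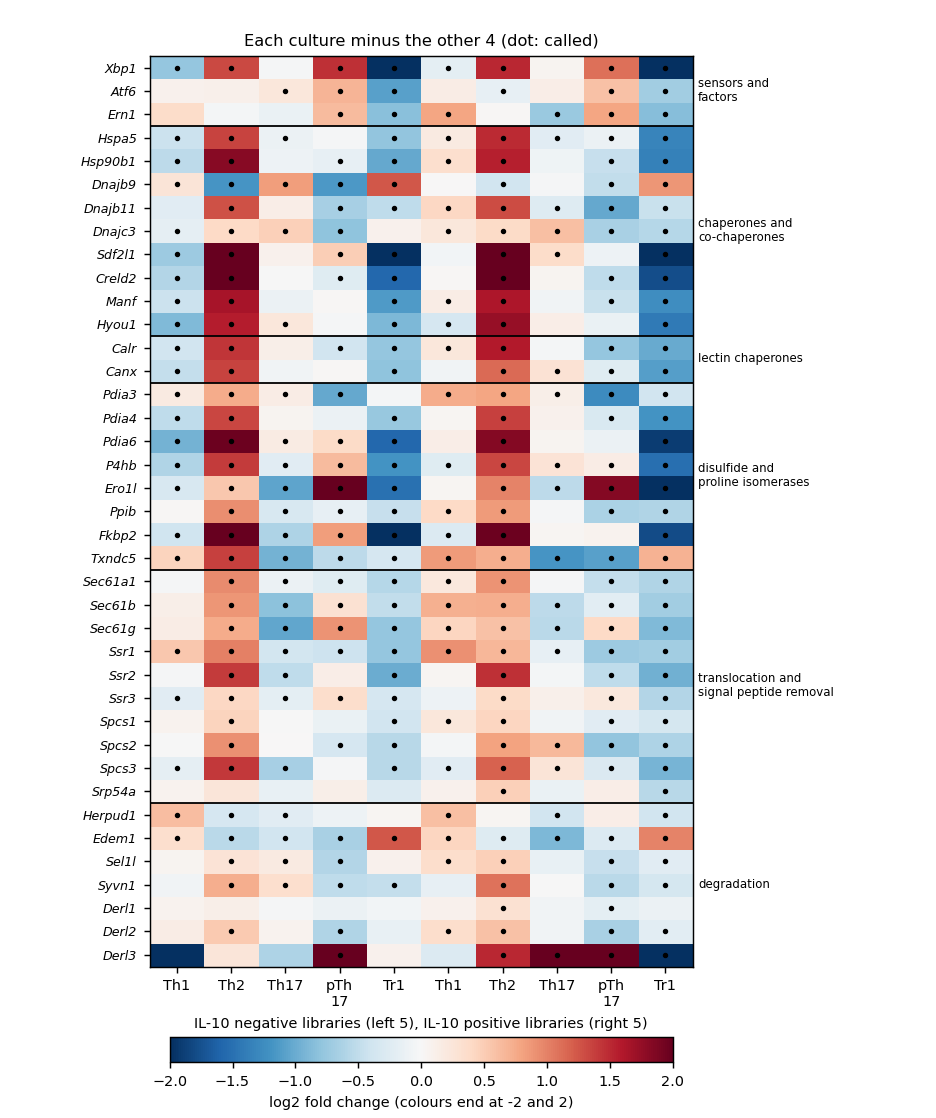
Log2 difference of each culture from the mean of the other 4 (columns) for the 39 genes (rows, grouped by role), in IL-10 negative libraries on the left and positive on the right; red is above the other cultures, blue below, and a dot marks an adjusted p below 0.05. The Th2 columns are mostly red (31 and 34 genes) and the Tr1 columns mostly blue (29 and 35 genes), with Dnajb9 and Edem1 the reverse.

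Sdf2l1 stood furthest above the other cultures in negative and Creld2 in positive Th2 cells, and Dnajb9 and Edem1 ran opposite to the list. Among negative libraries Sdf2l1 was 2.82 ± 0.083 above the other cultures in Th2 and -2.67 ± 0.15 in Tr1. Creld2 was at 223 ± 7.78 TPM in positive Th2 cells, 2.20 ± 0.068 above the other positive groups. Dnajb9 was at 17.9 ± 1.26 TPM in negative Th2 cells (-1.19 ± 0.092), 18.3 ± 1.68 in pTh17 (-1.15 ± 0.095), 72.2 ± 6.405 in Th17 (0.83 ± 0.082) and 76.4 ± 3.07 in Tr1. The positive Th2 cells also held it below the others (-0.39 ± 0.088). Edem1 was at 47.7, 53.1 and 45.8 TPM in negative and 47.5, 39.5 and 47.5 TPM in positive Tr1 libraries, 1.24 ± 0.062 and 1.00 ± 0.063 above the other cultures. No other gene of the list stood further above the other cultures in Tr1, though several stood further below, and each Tr1 library exceeded every library of the other 4 cultures.

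Other genes had their peak outside Th2. Ero1l was 2.34 ± 0.054 above the other cultures in negative pTh17 cells and -1.06 ± 0.072 in negative Th17 cells. Xbp1 had 2 high cultures, at 469.9 ± 23.7 TPM in positive Th2 and 396 ± 26.5 in positive pTh17 cells, against 54.6 ± 4.73 in positive Tr1 cells. Atf6 and Ern1 had their highest group means in positive pTh17 cells, 27.8 ± 1.91 and 3.700 ± 0.5003 TPM. The pTh17 cells, with high sensors, had a low Pdia3, at 240.3 ± 10.7 TPM in positive cells (-1.26 ± 0.048). Txndc5 had its highest group mean in positive Tr1 cells, 52.00 ± 3.22 TPM, and its lowest in negative pTh17 cells, 16.8 ± 1.25 TPM. Among the genes called in positive Th17 cells, it stood lowest relative to the other positive groups (-1.18 ± 0.10). Among the genes called in Th1 cells, Herpud1 stood highest and Pdia6 lowest relative to the other negative groups (0.62 ± 0.070 and -0.94 ± 0.071), and Ssr1 highest and Hyou1 lowest relative to the other positive groups (0.91 ± 0.051 and -0.34 ± 0.085). Derl3 was called highest in positive Th17 and pTh17 cells, on 50 and 43 reads per group, and lowest in positive Tr1 cells, where it had none.

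The genes with an ERSE, shown above, were described beside the 23 genes searched without one. These 23 include Herpud1 and Dnajb11, which hold the ERSE-II, and Txndc5, which holds the shorter core. In Th2 IL-10 negative cells 8 of the 9 lay above the other cultures and none below, with a median of 1.36. Of the 23 without one, 18 lay above and 3 below, with a median of 0.75. Of all genes tested, 36% lay above and 34.8% below there. In positive Tr1 cells all 9 lay below the others (median -1.32), as did 20 of the 23 (median -0.60) and 32.3% of all genes. For the IL-10 difference, 7 of the 9 rose on the mean of the 5 cultures (median 0.39) and 21 of the 23 (median 0.35). Of all genes, 29.6% rose on that mean. In single cultures the medians with and without the element were 0.87 and 0.66 in Th1, 0.51 and 0.32 in Th2, 0.66 and 0.39 in Th17, 0.32 and 0.15 in pTh17, and 0.20 and 0.17 in Tr1, the first being the higher in each. In Th1, 7 of the 9 and 20 of the 23 rose (all genes 23.5%), and in Th2, 7 and 18 (12.3%). In Th17, 8 and 13 rose (29.2%), in pTh17, 6 and 7 (10.1%), and in Tr1, 5 and 10 (20.5%). On the mean of the 5, Syvn1 and Derl3, which hold the element, were the 2 that did not rise. The difference between the sets was not tested.

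Neighbouring genes of the same pathways were taken from lists written from general knowledge. In the branch of PERK and ATF4, which controls translation and amino acid supply, 15 of 23 genes tested rose on the mean of the 5 cultures and 5 fell. Of all genes tested 29.6% rose and 28.2% fell on that mean, so the count that fell is no higher than the background. Asns, asparagine synthetase, rose by 2.64 ± 0.20 and Chac1 by 1.25 ± 0.46, and Atf3 and Ppp1r15a fell by 0.95 ± 0.31 and 0.71 ± 0.042. Atf4 rose by 0.33 ± 0.033 (adjusted p = 3.6e-11), from 101 ± 1.96 to 155 ± 5.902 TPM in Th1, and was not called in Tr1 (0.045 ± 0.078). Ddit3, the gene of the stress factor CHOP, fell on the mean (-0.25 ± 0.067 (adjusted p = 0.00151)), and among single cultures it was called in Th17, from 54.1 ± 7.75 to 27.4 ± 3.23 TPM (-0.83 ± 0.15). Eif2ak3, the gene of PERK, rose in Th1 (0.95 ± 0.16) and Tr1 (0.65 ± 0.19) and fell in Th17 (-0.60 ± 0.20).

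Glycosylation, transport and the rest of the entry machinery were also mostly higher on the mean of the 5 cultures, where 29.6% of all genes tested rose and 28.2% fell. Of 16 genes of oligosaccharyl transfer and glycoprotein checking, 12 rose and 2 fell, with Rpn1 (0.56 ± 0.032) and Rpn2 (0.52 ± 0.026) highest and Stt3b (-0.34 ± 0.054) and Mlec (-0.090 ± 0.034) lowest. Of 23 genes of transport between ER and Golgi, 17 rose and 3 fell, with Kdelr3 (0.71 ± 0.24) and Sec24d (0.66 ± 0.054) at the top and Sec24b (-0.24 ± 0.046) and Sec24a (-0.16 ± 0.034) at the bottom. Of 28 further genes of ER entry and degradation, 19 rose and 0 fell, from Os9 (0.089 ± 0.034) and Srp14 (0.094 ± 0.034) to Sil1 (0.27 ± 0.066) and Sec11c (0.40 ± 0.036). The cytosolic heat shock list, a different stress response, had 8 higher and 2 lower of 12, with Hsph1 (0.72 ± 0.036) and Hspd1 (0.56 ± 0.029) highest and Hsf1 (-0.20 ± 0.052) and Dnaja1 (-0.15 ± 0.024) lowest.

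Cell cycle genes and markers of other cells moved with some of these results. All 23 cell cycle genes rose on the mean of the 5 cultures, where 29.6% of all genes tested rose. They ran from Tyms (0.21 ± 0.070) and Mcm4 (0.39 ± 0.028) to Cdk1 (2.31 ± 0.063) and Bub1 (2.58 ± 0.089). Their summed level went from 822 ± 51.7 TPM in negative to 1779 ± 80.00 in positive Th1 cells, from 5177 ± 85.3 to 5621 ± 95.6 in Th2 and from 899.6 ± 61.1 to 4979 ± 117 in Th17. It went from 2039.7 ± 24.96 to 2955 ± 170.2 TPM in pTh17 and from 366 ± 25.04 to 1175 ± 99.2 in Tr1. Like the 39 genes it was highest in Th2 and lowest in Tr1 in both compartments. The sum in positive cells was over 2 times that in negative cells in Th1, Th17 and Tr1, and less than that in Th2 and pTh17. Its part in the results was not tested.

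The 10 B cell markers summed to 178 to 183 TPM in negative and 349 to 477 TPM in positive pTh17 libraries, with H2-Ab1 the most abundant at 235 TPM in positive cells. Their sum went from 24.6 ± 2.75 to 72.3 ± 6.76 TPM in Th1, from 63.3 ± 5.29 to 86.3 ± 12.5 in Th2, from 11.8 ± 1.94 to 37.1 ± 3.98 in Th17 and from 11.7 ± 3.17 to 13.9 ± 1.696 in Tr1. The positive libraries lay above the negative ones in each culture but Tr1, where they overlapped. Plasma cell markers summed to 8.71 to 10.8 TPM in negative and 31.3 to 78.7 TPM in positive pTh17 libraries. Mzb1 went from 0.453 ± 0.361 to 38.1 ± 18.8 TPM, Igj from 0.4600 ± 0.797 to 3.197 ± 4.75 and Sdc1 from 3.66 ± 1.43 to 6.71 ± 0.594, and Tnfrsf17 was at 0 in both. Myeloid markers summed to 10.7 to 13.8 TPM in negative and 40.7 to 52.5 TPM in positive libraries there, and to 7.91 to 11.9 and 31.8 to 34.1 TPM in Th1. In Tr1 the myeloid sum went from 6.07 ± 1.64 to 12.6 ± 0.396 TPM, and in Th2 it was 5.700 ± 0.811 and 5.58 ± 0.756. The plasma cell sums were 10.2 ± 2.34 and 13.2 ± 1.66 TPM in Th2 and 12.9 ± 2.42 and 19.6 ± 3.17 in Th17. The 4 NK cell markers summed to 4.19 ± 0.624 and 44.2 ± 1.32 TPM in Th1 and 3.597 ± 0.396 and 36.6 ± 1.52 in Tr1, nearly all of it Klrk1 in positive cells (42.96 ± 1.24 and 35.7 ± 1.51 TPM). The sort kept TCRb+ CD4+ cells, and the part of other cells in the differences of the 5 cultures was not tested.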

How the data were processed

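Each library had 1 deposited table made with RSEM, whose expected counts are estimates and often not whole, per the file headers. Its TPM and FPKM columns, scaled by the authors for depth and length, were used for levels (TPM) or left unused (FPKM). The submitters' processing notes name RSEM and mm10; the aligner, like the version of RSEM, is not given in the sources used here. Libraries were an adaptation of SMART-Seq2 without molecular identifiers or strand, per the labels' protocols, so reads of overlapping or near-identical genes may be shared. Where the protocol's wording names Thy1.1 positive cells for each compartment, the sample titles were followed.

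Rounded expected counts were the input, with genes kept by filterByExpr (12611 of 23420), libraries scaled by TMM, and 1 model with a mean for each of 10 groups fitted to all 30 libraries with edgeR 4.0.16 in R 4.3.3. Tests were two-sided, adjusted by Benjamini-Hochberg over all 12611 genes and called below 0.05; a standard error is the absolute log2 fold change divided by the root of F. Libraries held 4394704 to 11850597 expected counts. The rule that names the members uses no measured value. The members, roles, lists and tests were nonetheless chosen with earlier results of these data known. Tests are printed for members called with a log2 fold change of at least 1 (up to 6 per direction and culture), for Hspa5, Hsp90b1, Xbp1, Atf6, Ern1 and Herpud1 in each culture, for the 6 highest and 3 lowest on the mean, for the 6 smallest p-values of the equality test, for the highest and lowest member of each culture, for 2 called genes at either end of each neighbouring list, and for Atf4, Ddit3 and Eif2ak3. The per-culture tests of Dnajb9, Edem1, Calr, Canx, Syvn1, Spcs1, Spcs2, Spcs3, Ssr1, the Sec61 genes and other members outside that rule were chosen after their values were seen.

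On simulated data with 200 changed genes in the Tr1 comparison (12329 genes), 14%, 68%, 90% and 100% of the genes changed by 1.25, 1.5, 2 and 4-fold were recovered, and 6 of 142 calls were false. Alternatives were another size factor, plain library totals, no filter, DESeq2 1.42.0, fits of 6 libraries, the replicate number as a block, and each library left out. Promoter windows came from RefSeq (GRCm38.p6); 7 members had no entry.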

Additional observations from a re-analysis of the deposited data

Results flagged for a closer look

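For 6 genes of the list the size of the difference between IL-10 positive and negative cells varied between the 5 cultures with the smallest adjusted p of edgeR's test of equal differences. Hsp90b1 (1.04e-12) differed by 1.40 in Th1 and by 0.46 in Tr1 on the log2 scale, higher in positive cells of all 5 cultures. Spcs3 (1.31e-11) differed by 1.00 in Th17 and by -0.038 to 0.21 in the other 4. Hspa5 (2.28e-11) ran from -0.11 in Tr1 to 0.81 in Th1, and P4hb (3.23e-11) from 0.029 in pTh17 to 0.81 in Th17. Pdia6 (4.63e-11) ran from 0.32 in pTh17 to 1.59 in Th1, and Ero1l (9.91e-11) from 0.16 in Tr1 to 1.25 in Th17. Such inequality was called for 60.7% of all genes tested.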

How the results depend on the processing

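Counts of genes of the list kept within 1.5 times the reported count in 156 of 163 alternatives and in 466 of 480 fits that left out a library, and named genes kept their direction and their side of the threshold in 399 of 403 and 941 of 948. The Tr1 count called lower was 1 as reported, 2 with the 6 Tr1 libraries fitted alone, 5 with no filter on low counts, 5 with plain library totals and 2 with the replicate block; the cause was not tested. Plain library totals also brought the Th17 count above the other cultures from 8 to 16 (negative) and from 8 to 19 (positive), the Th17 medians from -0.10 to 0.070 and from -0.028 to 0.15, and the Th1 positive count below from 5 to 9. Leaving out 1 library moved the Th1 count called lower between 1 and 2, the pTh17 count called higher between 9 and 15, the Tr1 count called lower between 1 and 4, the mean count called lower between 1 and 2, the Th17 negative count above between 3 and 8, and the Th1 positive count below between 3 and 5. Without the positive Tr1 library 18 the Tr1 count called lower was 3. The Tr1 differences of Hspa5 and Herpud1, not called as reported, were called lower with no filter (-0.20 and -0.33) and with plain totals (-0.17 and -0.29). Titles give the negative and positive libraries of a culture the same numbers. Deviations of same-numbered libraries from their group means correlated at -0.274 to 0.299 over 5000 genes. Of 15 pairs, 3 lay above 0.1 and 5 were best with their own number. Such weak correlations cannot decide whether same-numbered libraries came from the same culture or mouse, which the labels do not say. The replicate block moved no count but the Tr1 count called lower by over 1.5 times. Small counts, as of Derl3 and Ern1, limit what these depths can show.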
